A study of Homo sapiens with 12 samples.

Results

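The serum- and glucocorticoid-regulated kinases and the epithelial sodium channel (ENaC) they act on were followed in MDA-MB-231 cells, a human breast cancer line of the triple-negative type. The set holds 8 genes chosen by symbol: the kinases SGK1, SGK2 and SGK3, the ubiquitin ligase NEDD4L, the channel subunits SCNN1A, SCNN1B and SCNN1G, and the kinase substrate NDRG2. Of the 19907 genes with a value in every library, 7 were of the set. SCNN1B was not analysed here. A first line made wild-type glucocorticoid receptor (WT-GR) and the other made S134A-GR, the same receptor with the serine that its name gives changed to alanine. After 18 h in IMEM with 1% DCC serum, cultures had 6 h of vehicle or of the synthetic glucocorticoid dexamethasone (Dex) at 1 µM. The 4 groups of receptor by treatment had 3 libraries each, 12 in all. The labels do not say whether a receptor line was 1 clone, whether the cells' own receptor was removed, or whether a group's 3 libraries are separate cultures. The p-values therefore measure the spread between these libraries, which may be technical. Each receptor came with its own line. A difference between the receptors below therefore cannot be told apart from one between the lines.

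The SGK kinases belong to the same kinase family as AKT. They are switched on by phosphorylation, through the PI3-kinase pathway, PDK1 and the mTORC2 complex, and SGK1 is set apart by a strong control of its transcript level by steroids and serum. In the kidney tubule, distal colon and airway, aldosterone and glucocorticoids raise SGK1, and the kinase phosphorylates NEDD4L. NEDD4L otherwise binds the ENaC subunits and tags them for removal from the membrane. The channel carries sodium into the cell and is built from an alpha subunit (SCNN1A), a beta subunit (SCNN1B) and a gamma subunit (SCNN1G). NDRG2 and its relative NDRG1 are proteins that SGK1 phosphorylates. All measurements here are of RNA, and kinase activity and sodium current were not measured.

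Values are normalized read counts, a read count divided by the size factor of its library. Recovered library depth was 56.4 M to 100.6 M reads, with both mates of a pair apparently counted. The names of the Dex files were repaired by line order, and every Dex value below rests on that repair. WT-GR Dex replicates 2 and 3 stand apart, since only 193 and 210 of their genes were at a single read, where each of the remaining libraries had 352 to 409 such genes. All 5 markers of a mesenchymal-like line were present in every group (VIM at 372616 to 428768), and ESR1 was at 0 to 3.24 and CDH1 at 2.46 to 12.4 as group means. Of the 6 luminal markers, 5 had values, and they summed to 1052 to 1085 in vehicle-treated WT-GR cells, 1230 to 1606 in Dex-treated WT-GR cells, 1334 to 1502 in vehicle-treated S134A-GR cells and 1653 to 1828 in Dex-treated S134A-GR cells, with GATA3 the main contributor (group means of 808 to 1489). The 3 endothelial markers were all detected, and they summed to 1885 to 2032, 2847 to 3399, 1447 to 1572 and 2099 to 2340 in the same order of groups. They did not move together: as group means in that order, PECAM1 was at 1358.5, 2536, 1141 and 2026, CDH5 at 186.6, 389, 19.0 and 32.7, and VWF, lower with Dex, at 396, 187, 364 and 162. The part of luminal and endothelial markers in the results was not tested. Blood markers (2 of 4 with values) summed to at most 58.0, fibroblast markers (3 of 3) to at most 20.49, and 4 markers of sodium-absorbing kidney or lung epithelium to 18.3 to 56.1. No marker with a value was at 0 in all libraries.

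SGK1 has several annotated starts, and its promoters are shown because a gene count, and so the SGK1 response below, adds up transcripts from all of them. Both stretches are the 250 bases before a RefSeq start (GRCh38.p14, minus strand, written 5′ to 3′ along the gene). The first lies before the most downstream start at chr6:134174867-134175116 and the second before the most upstream start at chr6:134318113-134318362. Capitals mark TATAA, or its complement TTATA, within the last 50 bases.
SGK1 downstream start: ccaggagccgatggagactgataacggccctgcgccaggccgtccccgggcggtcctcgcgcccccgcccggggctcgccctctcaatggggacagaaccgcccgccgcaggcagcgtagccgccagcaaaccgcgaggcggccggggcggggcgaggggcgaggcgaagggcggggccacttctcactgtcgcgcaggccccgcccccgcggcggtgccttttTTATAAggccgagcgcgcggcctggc
SGK1 upstream start: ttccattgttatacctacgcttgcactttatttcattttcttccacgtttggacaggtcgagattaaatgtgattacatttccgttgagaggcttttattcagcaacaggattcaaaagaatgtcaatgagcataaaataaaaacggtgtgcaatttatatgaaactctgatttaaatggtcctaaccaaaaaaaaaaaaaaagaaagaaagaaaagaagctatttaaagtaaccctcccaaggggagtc
The downstream promoter holds the motif on each strand, overlapping, with first bases 26 and 25 bases before the start. The third SGK1 window, before a start between them (chr6:134177862-134178111), holds it 15 bases before its start and is not printed. The upstream one does not hold these letters in its last 50 bases. Among all 35116 promoter windows of the same table, 6.1% had TATAA or TTATA there. A 6-base arm of the receptor's binding element, AGAACA or its complement TGTTCT, was searched on both strands of the 250 bases. It was in 0 of 3 SGK1 windows, 1 of 5 NEDD4L windows (78 bases before the start), 0 of 5 NDRG2 windows and 0 of 1 SCNN1B window, against 12.4% of all windows. The full element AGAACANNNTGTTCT was in none of these and in 1 window in all. SGK2, SCNN1A and SCNN1G are not in the table, and SGK3 was not searched. A match is a description of the letters, not evidence of a bound site. Bases beyond these windows and inexact matches were not searched, so a lack of matches is not evidence that a gene lacks a site.

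Dex raised SGK1 and SCNN1A and lowered NEDD4L in cells with either receptor. These were 3 of the 5 members that had a normalized count of at least 10 in at least 3 libraries and so could be tested (limma across 15957 genes, Benjamini-Hochberg adjusted p under 0.05). In WT-GR cells 27.9% of all tested genes passed, 13.9% higher and 14.0% lower. In S134A-GR cells the same 3 members passed, beside 15.7% of all tested genes, 7.99% higher and 7.76% lower. Between the receptors, SCNN1A alone passed among the members, lower in S134A-GR cells in vehicle and in Dex, where 50.5% (23.8% higher, 26.7% lower) and 49.7% (23.4% higher, 26.3% lower) of all genes passed. No member passed the test of the difference between the Dex responses, which 0.414% of all genes passed. At an unadjusted p under 0.05 it was also 0 of 5 members by limma, and after adjustment it was 0 by edgeR and by DESeq2. SGK1 came nearest, with an unadjusted limma p of 0.062. The median log2 difference over all tested genes was between -0.02 and 0.011 in each of these comparisons.

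**Figure D1:**
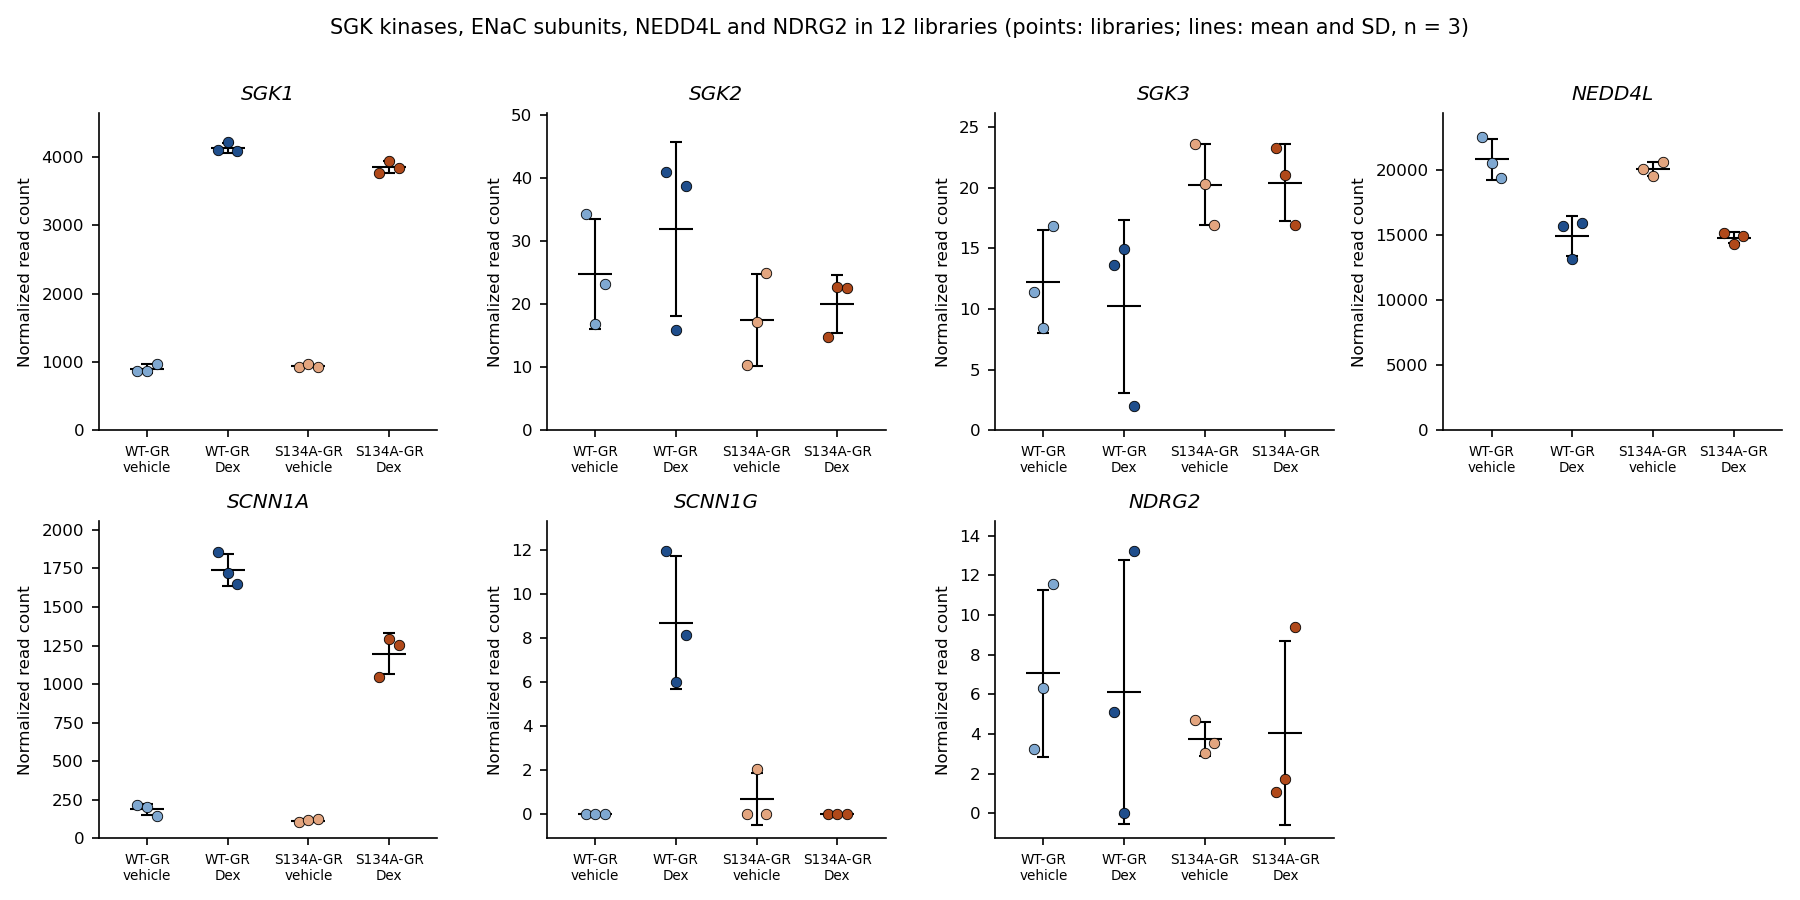
Normalized read count (y axis) of the 7 members with values in the 4 groups of receptor by treatment (x axis). Points are libraries and black lines are the mean and SD (n = 3). SGK1 and SCNN1A sit higher with Dex under either receptor, NEDD4L sits lower, and SCNN1G has reads in every WT-GR Dex library.

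SGK1 (ENSG00000118515, chromosome 6, 134169246 to 134318112, minus strand, GRCh38) was the kinase that responded. Its normalized counts were 868.5, 867.7 and 972.9 in vehicle-treated WT-GR cells and 4102.4, 4210.4 and 4082.3 in Dex-treated WT-GR cells. In S134A-GR cells they were 931.2, 968.1 and 930.1 in vehicle and 3761.7, 3939.9 and 3843.6 in Dex. Every Dex library stood above every vehicle library, and the spread within a group was small.
The group means rose from 903 ± 60.5 to 4132 ± 68.9 in WT-GR cells and from 943 ± 21.6 to 3848 ± 89.2 in S134A-GR cells (SD, n = 3). These are 4.58-fold and 4.08-fold. On the log2(value + 1) scale the rises were 2.19 ± 0.06 and 2.03 ± 0.06 (SE), with limma adjusted p = 7.8e-12 and 1.83e-11.
The order of the levels was Dex-treated WT-GR cells, Dex-treated S134A-GR cells, vehicle-treated S134A-GR cells and vehicle-treated WT-GR cells. The 3 S134A-GR Dex values lay below the 3 WT-GR Dex values, but the difference of -0.10 did not pass (limma adjusted p = 0.159) and had the other sign, 0.01, with scaling by library size only. With that scaling the median log2 difference of all genes in this comparison was 0.115, against 0.011 in the main fit. In vehicle the receptors differed by 0.06 (adjusted p = 0.38 by limma), and by 0.11 with libraries weighted by their quality (limma adjusted p = 0.00879). The response with S134A-GR minus that with WT-GR was -0.17 (95% interval -0.34 to 0.01, limma adjusted p = 0.31). This difference did pass with the same weights, at -0.21 (limma adjusted p = 0.0408). The estimation of the weights stopped before it converged, so every value with library weights is uncertain.

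SGK2 and SGK3, the relatives of SGK1, had few reads. SGK2 (chromosome 20, 43558968 to 43588237, plus strand, with 365 exonic bases shared with Z98752.3) was at 34.2, 16.9 and 23.2 in vehicle-treated WT-GR cells, 41.0, 15.97 and 38.6 in Dex-treated WT-GR cells, 10.4, 17.2 and 24.9 in vehicle-treated S134A-GR cells and 14.8, 22.8 and 22.6 in Dex-treated S134A-GR cells. The values of all 4 groups overlapped. The log2 Dex changes were 0.30 (95% interval -0.66 to 1.25) and 0.24 (-0.71 to 1.19) in WT-GR and S134A-GR cells, intervals that hold both rises and falls.
SGK3 encodes the SGK kinase with a phosphoinositide-binding domain that takes it to endosomes (chromosome 8, 66667596 to 66862022, plus strand). It was at 11.4, 8.5 and 16.8 in vehicle-treated WT-GR cells, 13.7, 14.97 and 2.0 in Dex-treated WT-GR cells, 23.6, 20.3 and 16.9 in vehicle-treated S134A-GR cells and 23.2, 21.0 and 16.95 in Dex-treated S134A-GR cells. The S134A-GR values lay above the WT-GR values in each treatment, though in vehicle the nearest pair was 16.93 against 16.85.
The receptor difference in SGK3 was 0.72 ± 0.56 (SE) in vehicle and 1.25 ± 0.56 in Dex, with limma adjusted p = 0.309 and 0.0806. The one in vehicle passed with library weights (1.12, limma adjusted p = 0.00198). The one in Dex passed without WT-GR Dex replicate 1 (1.61, limma adjusted p = 0.0431) or without replicate 2 of that group (1.67, limma adjusted p = 0.0319). Without replicate 3 of that group, 1 of the libraries that stand apart, it was 0.47 (limma adjusted p = 0.323). The Dex changes of SGK3 were -0.52 and 0.01, neither past the threshold. A RefSeq readthrough gene, C8orf44-SGK3, covers all of SGK3, and how the authors counted reads shared between them is not given in the sources used here, so the SGK3 level is uncertain.

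**Figure D2:**
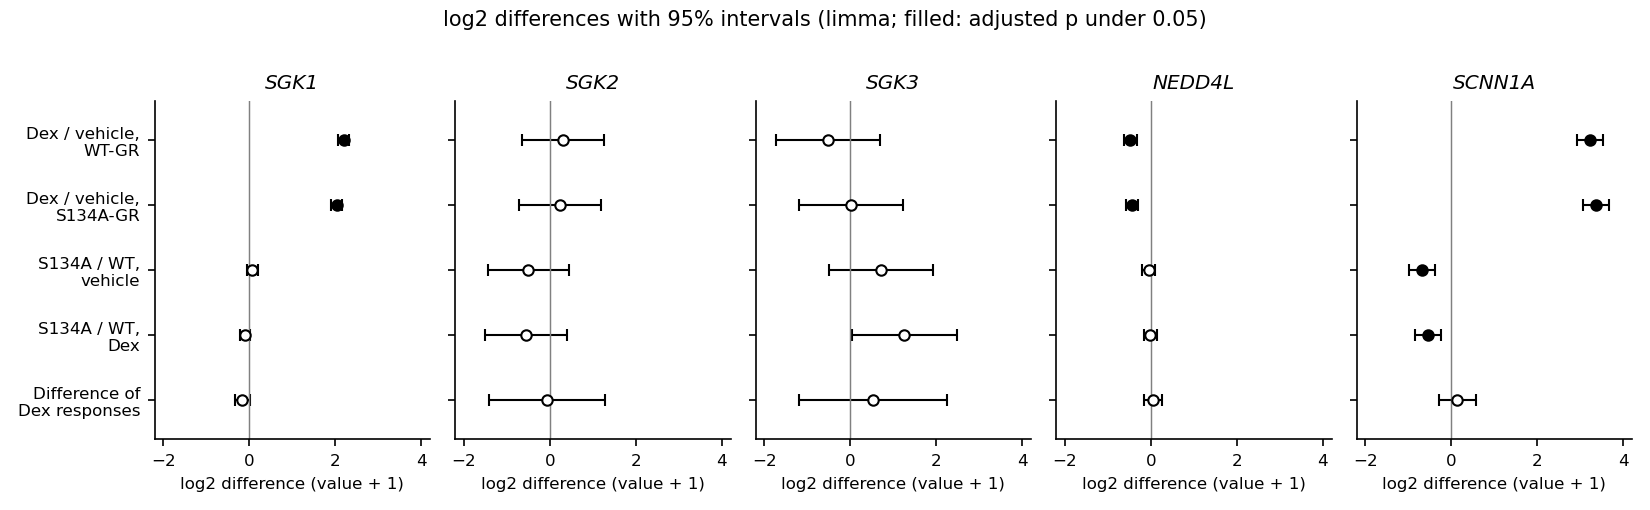
Differences on the log2(value + 1) scale (x axis) for the 5 tested members in 5 comparisons (y axis), with 95% intervals from limma and filled points where the adjusted p was under 0.05. SGK1 and SCNN1A are far above 0 and NEDD4L is below 0 in both Dex comparisons, while the intervals of SGK2 and SGK3 are wide.

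SCNN1A, the alpha subunit that the channel needs to reach the membrane, had the largest Dex response of the 5 tested members (ENSG00000111319, chromosome 12, 6346843 to 6377730, minus strand). It was at 215.1, 202.9 and 147.4 in vehicle-treated WT-GR cells and at 1854.0, 1717.9 and 1649.6 in Dex-treated WT-GR cells. In S134A-GR cells it was at 105.6, 117.6 and 122.9 in vehicle and at 1046.1, 1292.6 and 1255.5 in Dex. No value of any group overlapped those of another.
Means rose from 188.5 ± 36.1 to 1740.5 ± 104 with WT-GR, 9.24-fold, and from 115 ± 8.90 to 1198 ± 133 with S134A-GR, 10.4-fold (SD, n = 3). The log2 rises were 3.22 ± 0.14 and 3.36 ± 0.14 (SE), with limma adjusted p = 1.13e-09 and 6.36e-10. They differed by 0.14, with an interval of -0.28 to 0.57 (limma adjusted p = 0.723).
The level, as against the response, did differ between the lines of the receptors, and line and receptor cannot be told apart. With S134A-GR, SCNN1A differed by -0.69 on the log2 scale in vehicle and by -0.54 in Dex, that is 0.612 and 0.688 times the WT-GR level (limma adjusted p = 0.000978 and 0.00519). Both calls stood in all 23 alternatives, with differences of -0.85 to -0.58 in vehicle and -0.64 to -0.42 in Dex. The order was Dex-treated WT-GR cells, Dex-treated S134A-GR cells, vehicle-treated WT-GR cells and vehicle-treated S134A-GR cells.
In GENCODE, 422 exonic bases of SCNN1A are shared with LTBR, a receptor gene of the lymphotoxin family on the opposite strand, and whether counting used the strand is not given in the sources used here. LTBR was far more abundant, at 12808 ± 711 and 22667 ± 2366 in WT-GR vehicle and Dex and 11978 ± 103 and 19802 ± 1260 in S134A-GR vehicle and Dex, so it too was higher with Dex, 1.77-fold and 1.65-fold (limma adjusted p = 1.15e-06 and 3.76e-06). Its part in the SCNN1A values was not tested.

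SCNN1G, the gamma subunit, had nearly all of its few reads in WT-GR cells given Dex (chromosome 16, 23182715 to 23216883, plus strand, with 171 exonic bases shared with genes on the opposite strand). Its normalized counts there were 11.95, 6.0 and 8.1, from 7, 6 and 8 recovered reads. The other 9 libraries had 2 reads between them, both in S134A-GR vehicle replicate 2, where the value was 2.0. As a limit that a count of 0 allows, 3 reads over the group were taken. The observed level in Dex-treated WT-GR cells was 6.8 times this limit in vehicle-treated WT-GR cells. It was 8.6 times the limit in Dex-treated S134A-GR cells. Such limits cover only the counting error of the group at 0, not that of the 21 reads, so these ratios are not lower bounds. The reads of a pair are not independent molecules either. WT-GR Dex replicates 2 and 3 are the libraries that stand apart by their few genes at a single read. The part of this in the SCNN1G values was not tested.
SCNN1G was under the filter on low values. The exact permutation test gave p = 0.1 (two-sided) for both comparisons, the smallest that 3 libraries against 3 can give. With no filter, the rise in WT-GR cells had limma adjusted p = 0.000646 and edgeR adjusted p = 0.0344, and the difference between the receptors in Dex 0.000253 by limma and 0.0141 by edgeR. The difference between the Dex responses did not pass in either (limma adjusted p = 0.06, edgeR adjusted p = 0.236). The edgeR fit with no filter was chosen after seeing the data. At 21 reads in all, SCNN1G was also a small fraction of the alpha subunit: per kb of exon its mean was 2.48 ± 0.861 in Dex-treated WT-GR cells, where SCNN1A was at 296 ± 17.7 (SD, n = 3).

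NEDD4L, the ligase that removes the channel from the membrane, was abundant and fell with Dex (ENSG00000049759, chromosome 18, 58044367 to 58401540, plus strand). It was at 22536.2, 20520.2 and 19401.7 in vehicle-treated WT-GR cells and at 15665.2, 13189.3 and 15932.7 in Dex-treated WT-GR cells. With S134A-GR the values were 20114.2, 19544.3 and 20649.7 in vehicle and 15135.4, 14315.6 and 14899.9 in Dex. Every Dex library lay below every vehicle library.
The means fell from 20819 ± 1588 to 14929 ± 1513 and from 20103 ± 553 to 14784 ± 422 (SD, n = 3), to 0.717 and 0.735 times the vehicle level. The log2 changes were -0.48 ± 0.07 and -0.44 ± 0.07 (SE), with limma adjusted p = 0.000191 and 0.000418, and stayed between -0.55 and -0.40 in all alternatives.
The receptors gave the same order of levels, vehicle over Dex. Neighbouring levels of the 2 receptors did not differ beyond their spread, with log2 differences of -0.05 (95% interval -0.20 to 0.10) in vehicle and -0.01 (-0.16 to 0.14) in Dex. The responses differed by 0.04 (-0.17 to 0.25, limma adjusted p = 0.867). In GENCODE, 945 exonic bases of NEDD4L are shared with genes on the opposite strand.

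NDRG2 (chromosome 14, 21016763 to 21070872, minus strand) was hardly detected. Its counts were 3.3, 6.3 and 11.6 in vehicle-treated WT-GR cells, 5.1, 0.0 and 13.2 in Dex-treated WT-GR cells, 4.7, 3.0 and 3.6 in vehicle-treated S134A-GR cells and 1.1, 1.8 and 9.4 in Dex-treated S134A-GR cells. The groups overlapped in every comparison, and the exact permutation p-values (two-sided) ran from 0.3 to 1.0. NDRG2 was under the filter on low values. With no filter, its changes in these 4 comparisons had limma adjusted p = 0.605 to 0.93.

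Divided by exonic length, the members kept a wide order of levels. Counts per kb of exon were 1193 ± 91.0, 855 ± 86.7, 1152 ± 31.7 and 847 ± 24.2 for NEDD4L in vehicle-treated WT-GR cells, Dex-treated WT-GR cells, vehicle-treated S134A-GR cells and Dex-treated S134A-GR cells (SD, n = 3). For SGK1 they were 90.4 ± 6.06, 413.5 ± 6.90, 94.4 ± 2.16 and 385 ± 8.93 in the same order. For SCNN1A they were 32.1 ± 6.14, 296 ± 17.7, 19.6 ± 1.51 and 204 ± 22.6. With these lengths the alpha subunit stood below the kinase in every group, and the ligase above both. SGK2 was at 3.38 to 6.15, SGK3 at 1.58 to 3.15, SCNN1G at 0 to 2.48 and NDRG2 at 0.4997 to 0.935 per kb as group means. Lengths are those of all annotated exons in GENCODE, which may not be the annotation the authors used. They were 9.99 kb for SGK1, 17.45 kb for NEDD4L and 5.88 kb for SCNN1A. A single transcript can be shorter, so the order may differ with transcript lengths.

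Across the 12 libraries, on log2(value + 1), SGK1 and SCNN1A had Pearson r = 0.976, SGK1 and NEDD4L -0.952, and SCNN1A and NEDD4L -0.902. The libraries share treatment groups, so these describe the common Dex contrast. The genes most like SGK1 were DUSP1 (r = 0.998), MT1E (0.998) and KDF1 (0.997), and KDF1 was at 0 in all vehicle libraries. Most like SCNN1A were AGFG2 (0.997), PLXNA2 (0.996) and ZFP36L2 (0.994), whose means, like its own, were lower with S134A-GR in both treatments. PLXNA2, for example, was at 3674 and 13004 in WT-GR vehicle and Dex and at 2627 and 11748 with S134A-GR. Most like NEDD4L were ITGA2 (0.982), CREB5 (0.977) and FAM46C (0.965), with log2 Dex changes of -0.93, -1.38 and -1.79 in WT-GR cells. SGK2 was most like MGAT3 (0.898), RPEL1 (0.863) and MCM3AP (0.821), and SGK3 most like ANGPTL6 (0.975), EPGN (0.965) and ESYT3 (0.964). SGK3 was at only 2.0 in WT-GR Dex replicate 3, a library that stands apart, and its weight in these r values was not tested.

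The rest of the pathway was described from 10 lists of 88 genes, of which 86 had values and 82 were tested. With Dex, 13 rose and 19 fell in WT-GR cells (39.0%, against 27.9% of all genes) and 10 rose and 13 fell in S134A-GR cells (28.0%, against 15.7%). Their median log2 changes were 0.01 and 0.00. The lists were chosen with earlier results of these data known, so shares above those of all genes are not a test of the pathway. Between the receptors 23 were higher and 25 lower in S134A-GR cells in vehicle (58.5%, against 50.5% of all genes), and 19 and 22 in Dex (41 of 82, against 49.7% of all genes). A gene is named below where it passed in a Dex comparison with a log2 change of at least 0.5, at most 4 per list, and 16 such genes are described.

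**Figure D3:**
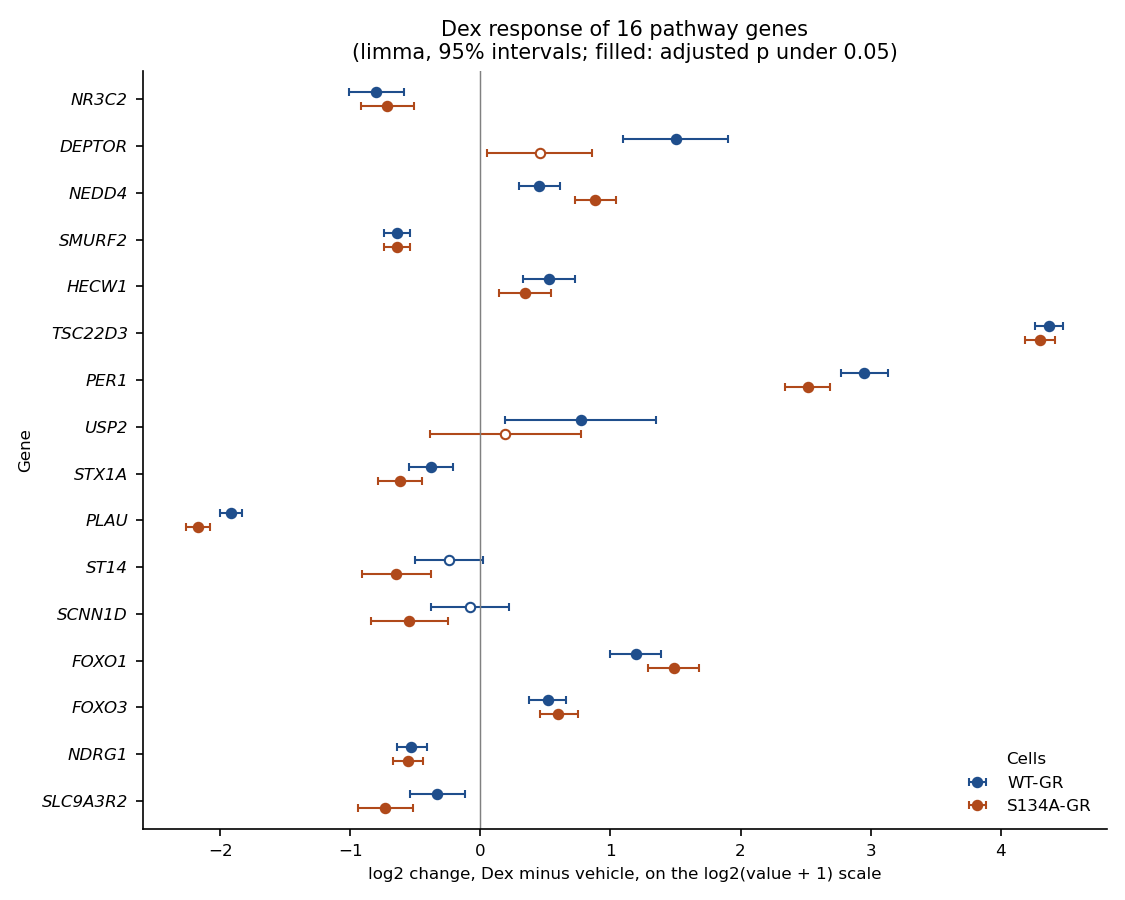
Dex response, as the log2 change on the log2(value + 1) scale (x axis), of the 16 pathway genes described (y axis) in WT-GR cells (blue) and S134A-GR cells (orange), with 95% intervals from limma and filled points where the adjusted p was under 0.05. TSC22D3 and PER1 lie far to the right and PLAU far to the left under either receptor, and USP2 has the widest intervals.

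Upstream of the kinases, the receptor list had 2 of 4 tested genes fall in WT-GR cells and 1 in S134A-GR cells, with none rising. NR3C2, the mineralocorticoid receptor through which aldosterone controls SGK1 and ENaC in the kidney, was at 325.9, 323.4 and 311.7 in vehicle-treated WT-GR cells and at 192.9, 182.7 and 175.9 in Dex-treated WT-GR cells. In S134A-GR cells it was at 497.7, 472.4 and 448.1 in vehicle and 280.0, 287.0 and 294.8 in Dex. The 4 groups did not overlap. NR3C2 thus fell by 0.80 and 0.72 on the log2 scale with Dex (limma adjusted p = 3.82e-05 and 0.000107). It was higher in S134A-GR cells by 0.56 and 0.64 in vehicle and Dex (limma adjusted p = 0.0003 and 0.000103), opposite to SCNN1A.
Among 16 genes of SGK activation (PDK1, mTORC2, PI3-kinase and others), 2 rose and 3 fell in WT-GR cells and 1 of each in S134A-GR cells. DEPTOR, a protein that binds and inhibits mTOR complexes, rose in WT-GR cells from 63.7 ± 12.6 to 180 ± 9.53 (limma adjusted p = 5.21e-05). In S134A-GR cells it was at 118.8, 106.4 and 163.9 in vehicle and at 180.7, 163.7 and 181.8 in Dex (adjusted p = 0.134 by limma). DEPTOR was already higher in S134A-GR cells in vehicle, by 1.01 on the log2 scale (limma adjusted p = 0.000538). In Dex the receptors differed by -0.04 (limma adjusted p = 0.887). Over all 12 libraries the difference between the responses was -1.04 (limma adjusted p = 0.115). Without S134A-GR vehicle replicate 3 the change in S134A-GR cells passed too, at 0.64 (limma adjusted p = 0.0471).
The list of genes of SGK1 turnover had 2 of 5 genes higher in WT-GR cells and none passing in S134A-GR cells. Of all genes, 13.9% and 7.99% were higher with Dex, and 0 of these 5 passed for the difference between the responses.

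NEDD4L's relatives did not move as a block. Of 10 NEDD4 family ligases and adaptors, 2 rose and 4 fell in WT-GR cells, and 3 rose and 2 fell in S134A-GR cells. NEDD4, the closest relative of NEDD4L, went the other way from it. Its counts were 9277.8, 8946.4 and 8332.0 in vehicle-treated WT-GR cells and 11108.7, 11655.1 and 13658.7 in Dex-treated WT-GR cells, and 8550.9, 8750.3 and 8822.4 in vehicle-treated S134A-GR cells and 17388.1, 15222.3 and 15683.5 in Dex-treated S134A-GR cells. The rises were 1.37-fold and 1.85-fold, or 0.45 and 0.88 on the log2 scale (limma adjusted p = 0.000464 and 7.77e-07). The Dex levels did not overlap, higher in S134A-GR cells by 0.41 (limma adjusted p = 0.000384), while the difference between the responses, 0.43, did not pass (limma adjusted p = 0.0923).
SMURF2, a ligase of the TGF-beta pathway, fell like NEDD4L but from a level that was itself lower with S134A-GR. It went from 19790 ± 596.5 to 12679 ± 440.5 and from 15897 ± 492 to 10216 ± 485 (SD, n = 3), a fall of 0.64 under either receptor (limma adjusted p = 2.2e-07 and 2.32e-07). HECW1, another ligase of the family, rose from 923 ± 108 to 1330 ± 68.8 and from 786 ± 74.8 to 993 ± 30.1. The second rise (0.34, limma adjusted p = 0.0245) did not pass without S134A-GR vehicle replicate 2 (0.27) or 3 (0.35), or without S134A-GR Dex replicate 1 (0.33) or 2 (0.32).

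Among 11 regulators of ENaC, 4 rose and 1 fell in WT-GR cells and 2 rose and 1 fell in S134A-GR cells. TSC22D3, or GILZ, which also acts on ENaC through NEDD4L and Raf, rose 20.7-fold and 19.7-fold, to 62230.4 ± 1070 and 40551 ± 258. PER1, a clock protein that raises SCNN1A transcription in kidney cells, rose from 1232 ± 57.7 to 9574 ± 1190 with WT-GR and from 1840 ± 122.6 to 10522 ± 543 with S134A-GR, 7.77-fold and 5.72-fold. The responses of TSC22D3 and PER1 did not pass for a difference between the receptors (-0.07 and -0.43, limma adjusted p = 0.65 and 0.128).
STX1A, a syntaxin that binds the channel, fell by 0.38 and 0.62 on the log2 scale (limma adjusted p = 0.00317 and 6.25e-05). USP2, a deubiquitinase that acts against NEDD4L on the channel, was at 24.4, 35.9 and 43.2 in vehicle-treated WT-GR cells and at 59.8, 41.9 and 78.3 in Dex-treated WT-GR cells, and these groups overlapped. Its change of 0.77 just passed (limma adjusted p = 0.0477) and was lost in 17 of 23 alternatives. Among them were WT-GR vehicle replicates 1 and 2, WT-GR Dex replicates 1 and 3 and each of the 6 S134A-GR libraries left out, with changes of 0.55 to 0.82 (limma adjusted p = 0.0593 to 0.18). In S134A-GR cells USP2 was at 62.3 ± 7.72 and 70.7 ± 3.46.

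Of the proteases that cut and open ENaC and their inhibitors, 9 were listed, 8 had values and 7 were tested, with none higher with Dex and 1 and 2 lower in WT-GR and S134A-GR cells. PLAU, urokinase, had the steepest fall of the 16 genes by fold in S134A-GR cells, from 86655 ± 1356 to 19215 ± 566, or to 0.222 times the vehicle level. In WT-GR cells it fell to 0.265 times. ST14, the membrane protease matriptase that activates the channel-cleaving protease prostasin, was at 317.7, 297.0 and 298.0 in vehicle-treated WT-GR cells, 249.3, 252.5 and 268.5 in Dex-treated WT-GR cells, 181.0, 167.3 and 151.4 in vehicle-treated S134A-GR cells and 114.1, 104.1 and 99.8 in Dex-treated S134A-GR cells. No groups overlapped. The receptor differences of ST14, -0.87 and -1.27 (limma adjusted p = 5.16e-05 and 1.89e-06), stood beside Dex changes of -0.24 (limma adjusted p = 0.151) and -0.65 (limma adjusted p = 0.00183).

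**Figure D4:**
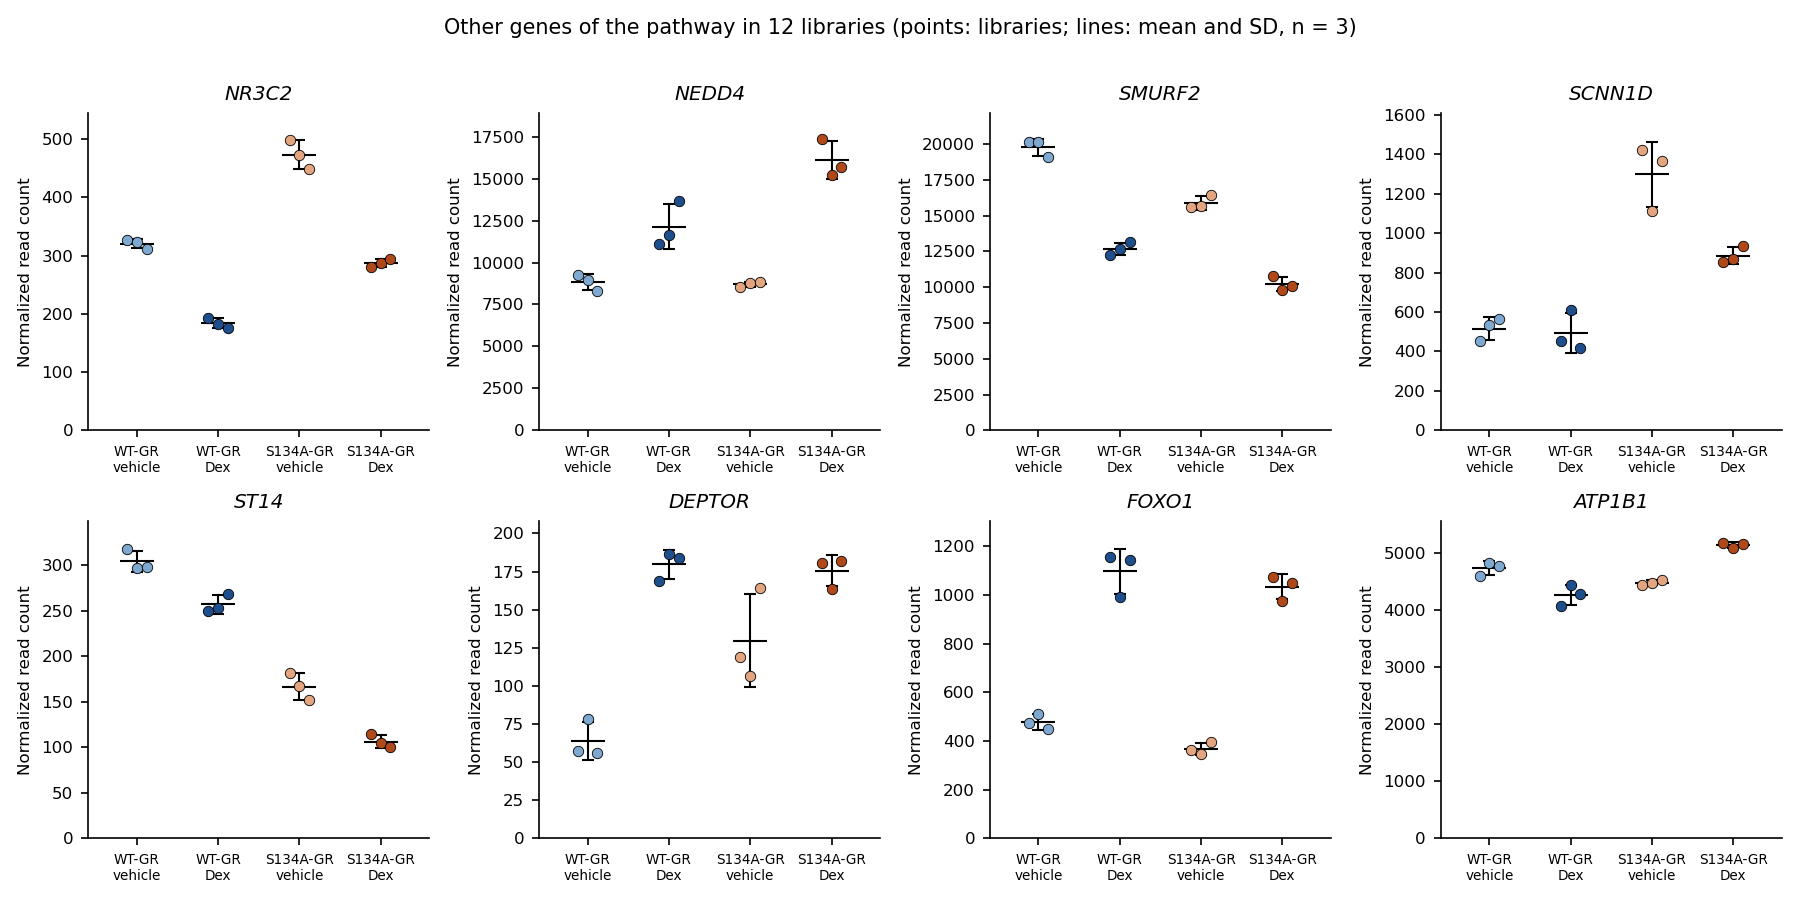
Normalized read count (y axis) of 8 other pathway genes in the 4 groups (x axis). Points are libraries and black lines are the mean and SD (n = 3). NR3C2 and SCNN1D are higher with S134A-GR and ST14 is lower, NEDD4 rises and SMURF2 falls with Dex, and ATP1B1 is lower with Dex in WT-GR cells and higher with Dex in S134A-GR cells.

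The other channels of the ENaC and acid-sensing family numbered 5, with 4 tested. With Dex 1 fell in WT-GR cells and 2 in S134A-GR cells and none rose. Between the receptors 3 of 4 were higher in S134A-GR cells in both treatments and none lower, beside 23.8% and 23.4% of all genes higher in vehicle and Dex. SCNN1D, the delta subunit that can stand in for the alpha subunit, was at 453.0, 532.7 and 563.3 in vehicle-treated WT-GR cells and 450.7, 607.9 and 418.0 in Dex-treated WT-GR cells. With S134A-GR it was at 1421.4, 1111.0 and 1365.7 in vehicle and 851.7, 870.8 and 934.3 in Dex. The receptor differences were 1.33 and 0.86 on the log2 scale (limma adjusted p = 4.12e-06 and 0.000173).
SCNN1D's Dex change was -0.55 with S134A-GR (limma adjusted p = 0.0147) and -0.08 with WT-GR (limma adjusted p = 0.695), and the difference between these was -0.46 (limma adjusted p = 0.258). The first did not pass without S134A-GR vehicle replicate 1 (-0.48) or 3 (-0.51) or without S134A-GR Dex replicate 1 (-0.52) or 2 (-0.53). ASIC3, an acid-sensing channel named after its values were seen, was at 346 ± 60.5 and 334 ± 91.6 in WT-GR vehicle and Dex and at 810 ± 113 and 684.5 ± 28.0 with S134A-GR.

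Of 12 substrates shared by SGK1 and AKT and relatives of NDRG2, 2 rose in cells of either receptor, and 4 fell with WT-GR and 3 with S134A-GR. FOXO1 and FOXO3, transcription factors that SGK and AKT kinases shut out of the nucleus, were the 2 that rose. FOXO1 went from 477 ± 31.6 to 1096 ± 91.3 and from 368 ± 24.1 to 1034 ± 51.5, 2.30-fold and 2.81-fold (limma adjusted p = 3.72e-07 and 3.81e-08). FOXO3 rose 1.43-fold and 1.52-fold, to 7010 ± 251 and 6164 ± 348 (limma adjusted p = 8.17e-05 and 1.85e-05). NDRG1, the abundant relative of NDRG2, fell from 54590.0 ± 2018 to 37884 ± 2671 and from 48990.2 ± 2270 to 33287 ± 889, or by 0.53 and 0.56 on the log2 scale (limma adjusted p = 6.8e-06 and 3.76e-06).

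Of 13 genes of sodium, potassium and chloride transport, 10 were tested. With Dex 1 rose and 2 fell in WT-GR cells, and 2 rose and 1 fell in S134A-GR cells. SLC9A3R2, a scaffold that ties SGK1 to the sodium/proton exchanger NHE3, fell by 0.33 with WT-GR (limma adjusted p = 0.0223) and 0.73 with S134A-GR (limma adjusted p = 8.72e-05). The first did not pass without WT-GR vehicle replicate 1 (-0.34) or 3 (-0.29), without WT-GR Dex replicate 3 (-0.21), or without WT-GR Dex replicates 2 and 3 together (-0.14, limma adjusted p = 0.31). SLC9A3, the exchanger NHE3 itself and named after its values were seen, was at 160 ± 9.02 and 137 ± 51.9 in WT-GR vehicle and Dex and at 775 ± 38.0 and 708 ± 64.2 in S134A-GR cells. The S134A-GR values lay above the WT-GR ones in each treatment, by 2.27 and 2.43 on the log2 scale (limma adjusted p = 1.66e-06 and 9.36e-07). Its Dex changes did not pass (adjusted p = 0.33 and 0.795 by limma).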

How the data were processed

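RNA of 12 libraries was sequenced as 75-base pairs after a TruSeq RNA kit, per the labels' protocols. FastQC 0.11.7, featureCounts of Subread, DESeq2 1.22.2 and hg38 are named in the submitters' processing notes, with no role or order, with aligner and annotation not given in the sources used here. The deposited values are signal, meaning counts that the authors divided by a size factor per library; dividing by the value of 1 read gave whole reads for 100% of values (within 0.1 reads). Dex files list 26485 names but hold 19907 values, so 6578 names have none and only 8 lines carry the vehicle files' name; 19881 vehicle names occur in the Dex list in the same order, 26 do not, and 28 Dex names are dates. Against the mean of the vehicle libraries, Dex values had Pearson r of 0.9816 to 0.9886 over genes matched by line, but -0.0056 to -0.0036 over the 14926 names in common, so vehicle names were used by line.

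Genes reaching 10 in 3 or more libraries went into limma 3.58.1 (trend, R 4.3.3) on log2(value + 1), with 1 coefficient per group. For low genes this scale can give smaller or larger changes than a count model. With no filter, the Dex change of SCNN1G in WT-GR cells was 3.23 by limma and 6.05 by edgeR. SGK3 between the receptors in Dex was 1.25 in the main fit and 1.03 by edgeR with TMM. The limma test was tried on simulated data. edgeR 4.0.16 and DESeq2 1.42.0 ran on the recovered reads as alternatives, beside other pseudocounts, filters and left-out libraries. Members and lists were chosen with earlier results of these data known. Named pathway genes passed in a Dex comparison with an absolute log2 change of at least 0.5, at most 4 per list, and 1 gene that met this is not reported here; the 3 genes with the highest Pearson r to a tested member were named too. Even counts made up 58.2 to 67.5% of counts from 1 to 20. Coordinates and lengths are from GENCODE v29.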

Additional observations from a re-analysis of the deposited data

Results flagged for a closer look

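ATP1B1 is the beta subunit of the sodium pump that moves sodium out of the cell after it enters through ENaC. Of the 82 tested pathway genes it alone passed the test of the difference between the Dex responses (1.2%, against 0.414% of all genes). It was at 4588.4, 4821.4 and 4775.1 in vehicle-treated WT-GR cells and 4075.1, 4431.0 and 4278.6 in Dex-treated WT-GR cells, and at 4431.9, 4465.4 and 4518.5 in vehicle-treated S134A-GR cells and 5177.6, 5081.1 and 5147.2 in Dex-treated S134A-GR cells. The log2 change was -0.15 in WT-GR cells and 0.20 in S134A-GR cells (limma adjusted p = 0.0227 and 0.00632), and the difference was 0.35 (limma adjusted p = 0.028). That difference kept its sign in all alternatives but did not pass with the replicate block (limma adjusted p = 0.0869), nor in 8 of 12 fits with 1 library left out, at 0.34 to 0.36 (limma adjusted p = 0.0569 to 0.119). These 8 left out WT-GR vehicle replicate 2 or 3 or any of the 6 S134A-GR libraries. In Dex, ATP1B1 was higher in S134A-GR cells by 0.27 (limma adjusted p = 0.000218), a call kept in all 23 alternatives. In vehicle the receptors differed by -0.08 (limma adjusted p = 0.151), and by -0.11 with library weights (limma adjusted p = 0.00106). The change in WT-GR cells did not pass without WT-GR vehicle replicate 2 (-0.14) or 3 (-0.14), without WT-GR Dex replicate 1 (-0.12), or with only the compared groups in the fit (-0.15).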

How the results depend on the processing

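The 8 member results past the threshold (SGK1, SCNN1A and NEDD4L with Dex under either receptor, and SCNN1A between the receptors) kept their direction and call in all 184 refits. The Dex counts were 3 or 4 members with WT-GR and 3 with S134A-GR. The count between the receptors in vehicle was 3 with library weights (SCNN1A, SGK1 and SGK3), whose estimation stopped before it converged. In Dex it was 2 with no filter, by limma and by edgeR with TMM, where SCNN1G passed too. With the filter, edgeR with TMM gave 1 in Dex. With 1 library left out, the count in Dex was 1 to 2. The count for the difference of responses was 1 with library weights. Of the 17 member results not past the threshold, 10 changed sign in at least 1 alternative. With library weights SGK2 was at 0.01 between receptors in Dex and 0.15 for the difference, SGK3 at 0.35 and -0.09 with Dex in WT-GR and S134A-GR cells and -0.44 for the difference, NEDD4L at 0.07 between receptors in Dex and SCNN1D at 0.04 with Dex in WT-GR cells. With scaling by library size only, SGK1 and NEDD4L were at 0.01 and 0.10 between receptors in Dex, NEDD4L at 0.03 in vehicle and SGK3 at -0.01 with Dex in S134A-GR cells. Without WT-GR Dex replicates 2 and 3, SGK3 was at 0.20 with Dex in WT-GR cells and -0.19 for the difference, and NEDD4L at -0.04 for the difference. With 1 library left out, SGK2 ranged from -0.07 to 0.52 with Dex in S134A-GR cells and from -0.48 to 0.23 for the difference, and SGK3 from -0.94 to 0.26 and from -0.11 to 0.13 with Dex in WT-GR and S134A-GR cells and from -0.25 to 0.95 for the difference. NEDD4L ranged from -0.10 to 0.01 and from -0.10 to 0.04 between receptors in vehicle and Dex and from -0.05 to 0.09 for the difference, and the Dex change of SCNN1D in WT-GR cells from -0.24 to 0.03. The cause of these changes was not tested. Same-numbered libraries of different groups did not deviate together over all tested genes (r = -0.085 to 0.055 over 18 pairs). This cannot tell whether same-numbered cultures were handled together, so a pairing by number stays unknown. With the replicate block the member counts were 3, 3, 1, 1 and 0, and the SGK1 Dex change in WT-GR cells was 2.19 (limma adjusted p = 9.14e-10). SGK2, SGK3, SCNN1G and NDRG2 had few reads, which limits what is said of them, and the reason for this was not tested.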
